A study of Homo sapiens with 12 samples.

Results

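Long intergenic non-coding RNA genes that carry a LINC number as their symbol were examined in 2 ovarian cancer cell lines, KURAMOCHI (Ku) and COV362 (Cov). Ku and Cov are established lines used as models of high-grade serous ovarian carcinoma, and each stands for 1 tumor. Each line had been exposed for 6 hr to DMSO, the vehicle, or to 50 nM or 250 nM of THZ1, a covalent inhibitor of the transcriptional kinase CDK7 that also acts on CDK12 and CDK13, with 2 libraries in each of the 3 groups and 12 libraries in all. No allele was altered and no other agent was given in these libraries. The values are FPKM, a level per transcript length and per reads mapped, scaled by the authors to ERCC spike-in RNAs that had been added to RNA from equal numbers of cells, so that a loss of RNA per cell remains visible.

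Of 266 rows named LINC and 5 digits among 23621 gene rows, the 43 genes with a mean above 1 FPKM in the DMSO libraries of at least 1 line were taken. The other 223 stayed at or below that limit in both lines. In all, 27 genes passed in both lines, 7 passed only in Ku and 9 only in Cov. Closest above the limit were LINC00173 (1.05 FPKM, Cov) and LINC00240 (1.08, Cov), and closest below it were LINC00235 (0.915, Ku) and LINC00052 (0.792, Ku). The genes were thus chosen by their DMSO levels in these same libraries, and a difference from DMSO in the line that chose a gene is given here as a description. A p-value against DMSO is given only for genes that the other line alone would have chosen, and the rule did not use the difference between 250 nM and 50 nM for any of the 43, although it was set with earlier results of these data known.

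Long non-coding RNAs are made by RNA polymerase II, are mostly capped, spliced and polyadenylated like mRNA, and are known for roles in chromatin, in protein binding and as precursors of small RNAs. The LINC symbols are placeholders for genes that lay apart from coding genes, and many have since been renamed. In current RefSeq records 37 of the 43 are lncRNA genes, 4 are protein-coding and 2 are transcribed pseudogenes, and 15 no longer have the LINC number as their symbol. The protein-coding ones are LINC00085 (now SPACA6, a sperm-egg fusion protein), LINC00094 (BRD3OS), LINC00116 (MTLN, the mitochondrial microprotein mitoregulin) and LINC00493 (SMIM26, a small membrane protein). LINC00657 is NORAD, a cytoplasmic RNA that binds Pumilio proteins, and LINC00152 is CYTOR, an RNA described in many carcinomas.

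On GRCh37, the build of the deposited values, 39 of the 43 genes have a GENCODE entry. LINC00657 lies on chromosome 20 from 34633540 to 34638940 (minus strand), with 1 exon, and LINC00152 on chromosome 2 from 87754300 to 87936259 (plus strand). LINC00339 lies on chromosome 1 from 22351051 to 22357716 (plus strand), 28069 bases upstream of the start of the GTPase gene CDC42, and LINC00662 on chromosome 19 from 28171980 to 28284913 (minus strand). Only LINC00657 and LINC00294 are unspliced in every listed transcript. Exons of 8 genes overlap another active gene, and 4 genes start within 5000 bases of the start of an active coding gene: LINC00857 is 1800 bases from the start of ANXA11, LINC00338 2033 from SEC14L1, LINC00035 3858 from ABHD11 and LINC00476 4785 from ERCC6L2. Both counts cover only genes whose GENCODE name matches an active row, so genes listed under another name can be missing. LINC00649, whose exons overlap ATP5PO on the opposite strand, is not among the 8. Reads in overlaps on the same strand, and on either strand if strand was not used in counting, could belong to either gene.

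The sequences around the starts of 4 genes are shown because the comparisons below turn on them: LINC00339 lost the largest share at 50 nM in Ku, LINC00657 was called lower in every comparison, LINC00662 stood higher at 50 nM than in DMSO, and LINC00152 had the highest level. Each runs 5′ to 3′ along the RNA strand from 250 bases before to 50 bases after the RefSeq start (GRCh38.p14), and capitals mark the GC box GGGCGG, the CCAAT box and the TATA box TATAAA on either strand. LINC00339 has 2 listed starts, of which 1 is shown.
LINC00339, chr1:22024941-22025240, plus strand: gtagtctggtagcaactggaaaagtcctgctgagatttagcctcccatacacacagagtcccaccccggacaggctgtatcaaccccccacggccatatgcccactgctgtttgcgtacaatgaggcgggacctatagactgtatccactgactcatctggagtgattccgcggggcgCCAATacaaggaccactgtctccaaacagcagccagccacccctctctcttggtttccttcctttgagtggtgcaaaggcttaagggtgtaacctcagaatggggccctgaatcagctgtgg
LINC00657, chr20:36050911-36051210, minus strand: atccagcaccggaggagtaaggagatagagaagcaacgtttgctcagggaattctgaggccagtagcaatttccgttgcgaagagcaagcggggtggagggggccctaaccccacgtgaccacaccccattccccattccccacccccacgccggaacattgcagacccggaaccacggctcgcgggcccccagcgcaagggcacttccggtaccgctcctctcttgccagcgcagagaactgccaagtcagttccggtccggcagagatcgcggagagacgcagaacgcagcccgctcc
LINC00662, chr19:27793891-27794190, minus strand: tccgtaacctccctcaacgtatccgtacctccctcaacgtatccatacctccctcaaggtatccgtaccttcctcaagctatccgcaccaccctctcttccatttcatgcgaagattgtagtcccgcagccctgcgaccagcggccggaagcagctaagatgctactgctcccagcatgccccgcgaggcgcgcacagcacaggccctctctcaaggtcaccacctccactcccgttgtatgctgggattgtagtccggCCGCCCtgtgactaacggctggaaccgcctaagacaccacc
LINC00152, chr2:87455177-87455476, plus strand: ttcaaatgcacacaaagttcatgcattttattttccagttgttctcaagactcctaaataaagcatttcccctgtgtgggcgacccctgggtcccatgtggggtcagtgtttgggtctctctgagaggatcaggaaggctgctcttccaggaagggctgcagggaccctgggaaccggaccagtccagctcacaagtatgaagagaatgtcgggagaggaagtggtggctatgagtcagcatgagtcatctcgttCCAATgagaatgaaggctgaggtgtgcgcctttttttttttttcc
LINC00657 has none of the 3 elements in this window and 23 CpG pairs, whereas LINC00152 has 5 CpG pairs. A promoter entry was found for 35 of the 43 genes. The GC box letters occur in 42.9% of these 35 and in 44.9% of 34796 distinct promoters, CCAAT in 60.0% and 34.6%, and TATAAA in 8.57% and 11.6%. These are matches of letters and not binding sites. Each of the 35 genes gives 1 window, whereas the 34796 promoters include every distinct listed start of a gene and leave out 1 chromosome, so the sets are unlike.

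Small RNA genes lie inside 7 of the 43 genes on the same strand. LINC00085 and LINC00478 (now MIR99AHG) each span a cluster of a miR-99, a let-7 and a miR-125 gene, and the mature 5p arms from RefSeq are shown because the pair share all 3 seeds, bases 2 to 8, in capitals.
hsa-miR-99b-5p, LINC00085: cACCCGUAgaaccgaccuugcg
hsa-miR-99a-5p, LINC00478: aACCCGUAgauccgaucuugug
hsa-let-7e-5p, LINC00085: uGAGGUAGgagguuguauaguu
hsa-let-7c-5p, LINC00478: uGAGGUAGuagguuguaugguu
hsa-miR-125a-5p, LINC00085: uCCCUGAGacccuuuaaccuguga
hsa-miR-125b-5p, LINC00478: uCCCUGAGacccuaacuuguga
LINC00472 spans MIR30A and MIR30C2, whose 5p arms share the seed GUAAACA. The libraries were made from polyadenylated RNA and measure the host transcripts, not the mature miRNAs. In the longest GENCODE transcript of LINC00657, of 5401 bases, the letters of the Pumilio element (TGTANATA, RNA strand only) occur 15 times, against at most 2 times in any other of the 39 genes with a transcript. At least 1 such match was found in 25.6% of the 39 genes and in 14.0% of 64476 genes of the annotation, and 8 of the latter hold at least 15. The annotation holds genes of every type and length, and a longer transcript has more room for a match. Length was not matched, so these shares are no measure of enrichment.

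The deposited values hold no read counts, so depth is unknown, and the number of libraries limits the precision. Replicates correlated over the 43 genes with Pearson's r of 0.990 to 0.994 on the log2(FPKM + 1) scale, and the median difference between replicates was 0.10 to 0.19. In each library a single value of 0.0783 to 0.119 FPKM was shared by 5276 rows in Ku and 4896 in Cov, and levels near or below it cannot be told from absence. Of the serous markers, PAX8, KRT8, KRT18 and MSLN were high in both lines (DMSO means of 68.6 FPKM or more), whereas WT1 was at 56.8 FPKM in Ku and 0.653 in Cov. EPCAM and KRT7 were at 4.13 and 4.61 FPKM in Ku and at 162 and 1355 in Cov. MUC16, CDH1 and ESR1 were below 1 FPKM in Ku and at 5.71, 4.45 and 2.18 in Cov. Markers of blood, endothelial and stromal cells (PTPRC, PECAM1 and DCN) had DMSO means of 0.338 FPKM or less, and COL1A1 was at 2.53 in Ku and 3.17 in Cov. In bulk libraries, fewer cells that express a gene and less RNA per cell cannot be told apart.

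The 43 genes made up little of the RNA. Their summed FPKM was 519 and 464 in the Ku DMSO libraries, 359 and 325 at 50 nM, and 164 and 166 at 250 nM. In Cov the sums were 695 and 758, then 366 and 379, then 252 and 232. The sums of the 3 groups did not overlap in either line, and neither did the sums over all gene rows. As a share of all FPKM they were 0.0421% and 0.0378% in Ku DMSO and 0.0247% and 0.0274% at 250 nM, and 0.0472% and 0.0450% in Cov DMSO and 0.0332% and 0.0304% at 250 nM. The number of the 43 genes above 1 FPKM was 33 and 32 in Ku DMSO, 23 and 21 at 50 nM, and 14 and 15 at 250 nM. In Cov it was 35 in each DMSO library, 26 and 27 at 50 nM, and 24 in each at 250 nM. Because the same limit chose the genes by their DMSO level, the DMSO counts are high by rule. The lower counts after THZ1 are a description, and no count over all genes stands beside them.

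Changes are given below as the mean FPKM in percent of the reference group, and tests are from limma on log2(FPKM + 1) over 14251 active genes, 2 libraries against 2. Called means an adjusted p below 0.001 together with a log2 change of more than 0.5 in either direction. An exact two-sided permutation test of 2 libraries against 2 cannot go below p = 0.33. Treatments were made in duplicate, but it is not stated in the sources used here whether each was a separate culture, so p-values measure the spread between these libraries, which may be technical. The lines were normalized in separate tables, and no difference between them was tested.

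LINC00657 (NORAD) was called lower in every comparison in both lines. Its FPKM in Ku was 121 and 109 in DMSO, 33.7 and 30.0 at 50 nM, and 12.9 and 13.3 at 250 nM. The Cov libraries were at 108 and 127, 29.1 and 36.2, and 12.4 and 11.5. Each dose stood apart from the one below it without overlap in both lines. At 50 nM 27.8% of the DMSO level was left in Ku (log2 change -1.82 ± 0.09 SE, adjusted p = 0.000223, limma) and 27.7% in Cov (-1.82 ± 0.13, adjusted p = 2.8e-05). From 50 nM to 250 nM the level fell again to 41.1% in Ku (-1.22 ± 0.09, limma, adjusted p = 0.000116) and 36.5% in Cov (-1.38 ± 0.13, adjusted p = 0.000172). At 250 nM 11.4% of DMSO was left in Ku and 10.1% in Cov. With each library scaled to the same median FPKM the log2 change between doses became -0.0032 in Ku and -0.58 in Cov and was called in neither, and the change from DMSO to 250 nM became -1.12 and -1.20 and was called in both. The call at 50 nM in Ku was lost whenever any 1 of the 6 Ku libraries was left out, with log2 changes of -1.90 to -1.73, and the call between doses in Ku was lost without 50 nM replicate 1 or either 250 nM library (-1.30 to -1.14). A stretch of 1036 bases of this RNA is 98.2% identical to LINC02211, so some reads could be shared.

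LINC00152 (CYTOR) had the highest level of the 43 in both lines. In Ku it was at 153 and 137 FPKM in DMSO, 180.1 and 161 at 50 nM, and 88.5 and 87.4 at 250 nM. Cov had 226 and 251, 168 and 166, and 114 and 101. Both Ku libraries at 50 nM thus stood above both DMSO libraries, whereas both Cov libraries stood below. At 250 nM 60.7% of DMSO was left in Ku (log2 change -0.71 ± 0.08, adjusted p = 0.000287, limma) and 45.1% in Cov (-1.14 ± 0.10, adjusted p = 1.58e-05). Between doses it fell to 51.6% in Ku (-0.94 ± 0.08, limma, adjusted p = 0.00021). These changes are on the ERCC scale, per cell: with each library scaled to the same median FPKM the log2 change from DMSO to 250 nM became 1.26 in Ku and 0.92 in Cov, and that between doses in Ku became 0.32. The call in Ku at 250 nM was lost without DMSO replicate 1 or either 250 nM library (log2 changes of -0.79 to -0.63), and that between doses without 50 nM replicate 1 or either 250 nM library (-1.03 to -0.86). The gene has a copy, MIR4435-2HG, 99.1% identical over 6657 bases, and reads of the pair could be shared.

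**Figure D1:**
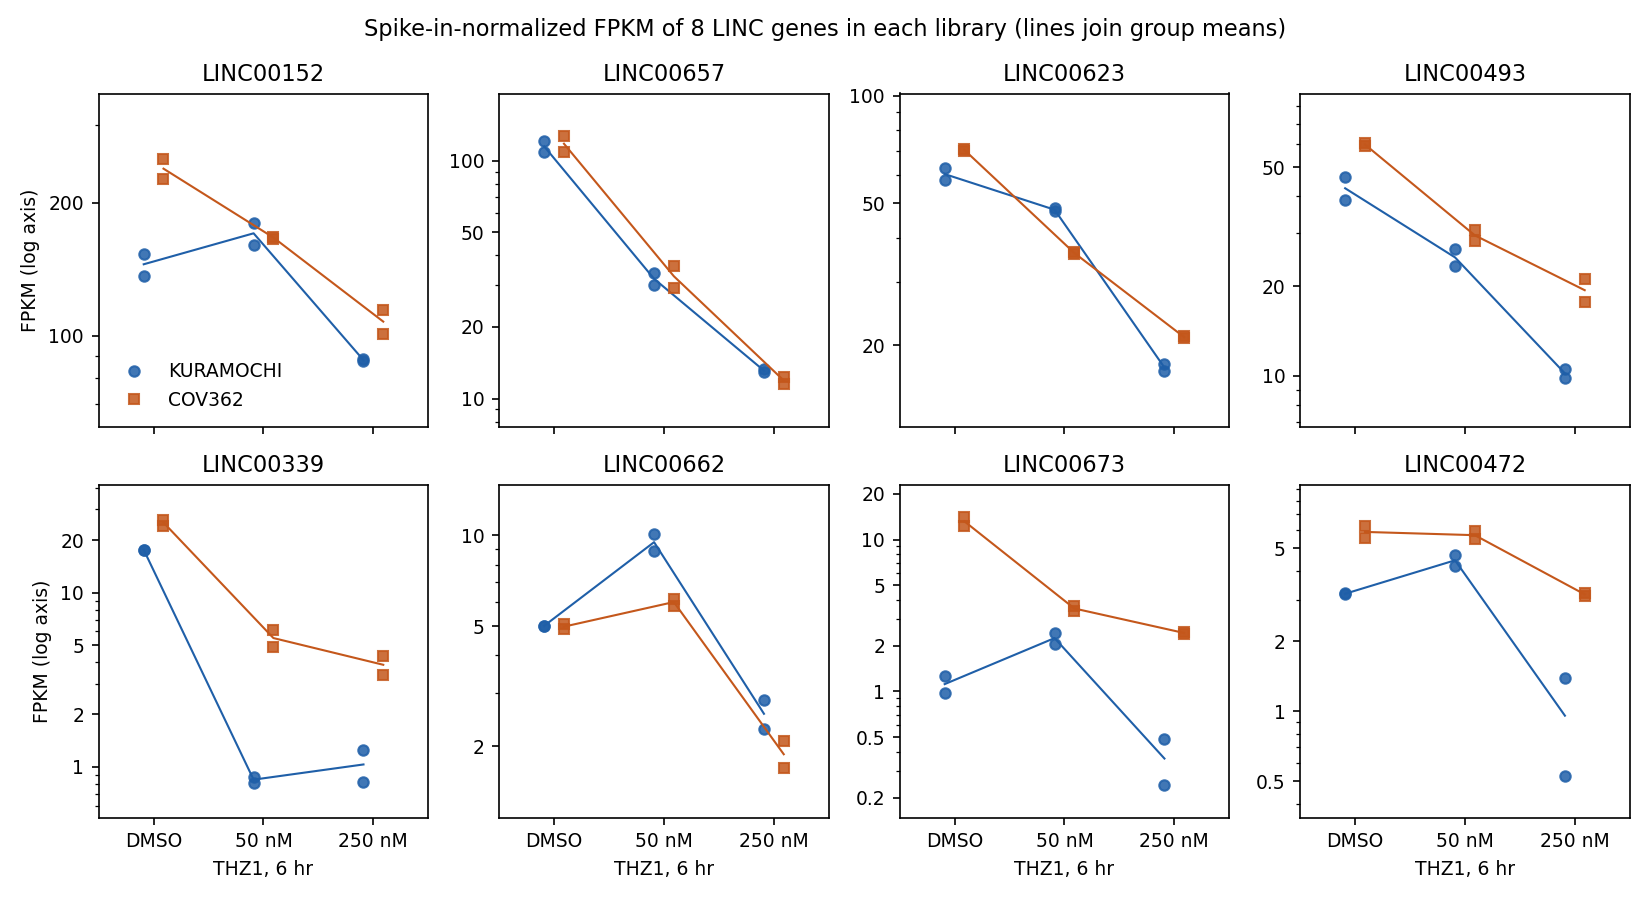
FPKM (log axis) of 8 LINC genes in each library by THZ1 dose after 6 hr, with circles for KURAMOCHI, squares for COV362 and lines joining the means of 2 libraries. LINC00657 steps down at each dose in both lines, LINC00339 drops to 4.80% of DMSO at 50 nM in KURAMOCHI, and LINC00662 stands above DMSO at 50 nM and below it at 250 nM.

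The low dose was compared with DMSO to see which of these RNAs respond to 50 nM. LINC00339, LINC00657, LINC00667 and LINC00094 were lower in both lines. In Ku 4 of the 36 genes open to a test were called lower and 0 higher, against 11.3% called lower and 0.0842% called higher among all active genes. The 4 called in Ku were also called in Cov, as were 92.5% of all active genes called in Ku. At an unadjusted limma p under 0.05, 20 of the 36 genes were lower and 3 higher in Ku (LINC00152, LINC00662 and LINC00673), against 61% and 1.46% of all active genes, and 27 of the 34 were lower and 0 higher in Cov, against 91.5% and 0.4%. In Cov 18 of 34 genes were called lower and 0 higher, against backgrounds of 70.5% and 0.0772%. Over all 43 genes the median level left was 51.6% of DMSO in Ku and 48.3% in Cov, beside 70.0% and 49.1% over the active genes, and the median log2 change was -0.54 in Ku and -0.66 in Cov, beside -0.40 and -0.85. Both 50 nM libraries lay below both DMSO libraries for 28 genes in Ku and 37 in Cov (75.8% and 95.7% of active genes did). The Ku count was 0 with no minimum level, against 0.0127% of all genes tested, and 0 in a fit of the 2 groups alone, against 0.0632% of active genes. In Ku fewer of these genes were called when any 1 library was left out, and the share of all active genes called fell as well. The same held in Cov without DMSO replicate 2. With any 1 library left out, the median log2 change was -0.61 to -0.46 in Ku and -0.73 to -0.65 in Cov. With each library scaled to the same median, 1 gene (LINC00657) was called lower in Ku and 0 in Cov, against 0.589% and 0.154% of active genes. With median-of-ratios scaling 2 were lower (LINC00339 and LINC00657) and 1 higher (LINC00152) in Ku, against 2.72% and 0.519%, and 0 were called in Cov, against 0.772% lower and 0.14% higher.

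LINC00339 showed the largest loss at 50 nM in Ku. It was at 17.6 FPKM in both Ku DMSO libraries, at 0.811 and 0.881 at 50 nM, and at 1.24 and 0.825 at 250 nM. The Cov values were 24.2 and 26.2, then 4.91 and 6.07, then 4.33 and 3.38. Only 4.80% of DMSO was left in Ku at 50 nM (log2 change -3.33 ± 0.14, adjusted p = 0.000223, limma), against 21.8% in Cov (-2.02 ± 0.14, adjusted p = 2.58e-05). The higher dose took no more of it in Ku, where the doses overlapped, and in Cov the doses did not overlap but the difference was not called. At 250 nM 5.87% of DMSO was left in Ku and 15.3% in Cov. The Ku call at 50 nM was lost without any 1 library other than DMSO replicate 2 (log2 changes of -3.36 to -3.31).

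LINC00667 and LINC00094 also lost most of their RNA at the low dose. LINC00667 was at 3.57 and 3.25 FPKM in Ku DMSO, 0.792 and 0.678 at 50 nM, and 0.440 and 0.666 at 250 nM (50 nM against DMSO: log2 change -1.35 ± 0.11, adjusted p = 0.000423, limma). LINC00094 (BRD3OS), whose exons overlap BRD3 on the opposite strand, was at 12.8 and 10.4 in Ku DMSO, 4.16 and 3.72 at 50 nM, and 2.29 and 2.53 at 250 nM (-1.35 ± 0.15, adjusted p = 0.000969). Both of these Ku calls were lost when any 1 Ku library was left out, with log2 changes of -1.40 to -1.29 for LINC00667 and -1.49 to -1.21 for LINC00094. In Cov LINC00667 was at 3.62 and 3.78 in DMSO, 0.830 and 1.30 at 50 nM, and 1.10 and 1.19 at 250 nM, so the doses overlapped. Exons of LINC00667 overlap the zinc finger gene ZBTB14 on the opposite strand. LINC00857, a neighbour of ANXA11, was at 9.34 and 9.14 in Cov DMSO, 2.48 and 2.08 at 50 nM, and 2.39 and 2.40 at 250 nM, so its doses overlapped as well. In Ku it was at 4.78 and 3.39, 1.95 and 1.49, and 0.611 and 0.800, with each dose below the last.

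A few genes stood above DMSO at 50 nM. Both 50 nM libraries lay above both DMSO libraries for 5 of the 43 genes in Ku (3.45% of active genes did) and for 1 in Cov (0.674% of active genes). LINC00662 was the gene that did so in both lines. Its FPKM in Ku was 5.01 and 5.02 in DMSO, 10.1 and 8.89 at 50 nM, and 2.85 and 2.27 at 250 nM. In Cov it was 4.90 and 5.07, 5.85 and 6.18, and 1.69 and 2.08. The 50 nM level was 189% of DMSO in Ku (log2 change 0.80 ± 0.14, adjusted p = 0.00489, limma) and 121% in Cov (0.23 ± 0.11, adjusted p = 0.0755), and neither passed the threshold. The 250 nM libraries lay below both other groups in each line.

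LINC00673 and LINC00472 had the same shape in Ku but not in Cov. LINC00673 was at 0.975 and 1.26 FPKM in Ku DMSO, 2.43 and 2.06 at 50 nM (log2 change 0.62 ± 0.13, adjusted p = 0.00862, limma, not called), and 0.483 and 0.240 at 250 nM. In Cov, where it was far more abundant, it was at 12.3 and 14.0, 3.65 and 3.38, and 2.40 and 2.45. At 50 nM the Ku libraries therefore stood above their DMSO libraries and the Cov libraries below theirs. LINC00472, the host of MIR30A and MIR30C2 with exons overlapping OGFRL1 on the opposite strand, was at 3.22 and 3.17 in Ku DMSO, 4.70 and 4.20 at 50 nM, and 0.526 and 1.39 at 250 nM. In Cov it was at 5.55 and 6.23, 5.47 and 5.93, and 3.13 and 3.23, so that 50 nM overlapped DMSO. The remaining genes of the 5 in Ku are LINC00152 and LINC00240 (0.468 and 0.321 in DMSO, 0.535 and 0.519 at 50 nM), the latter named after its values were seen.

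**Figure D2:**
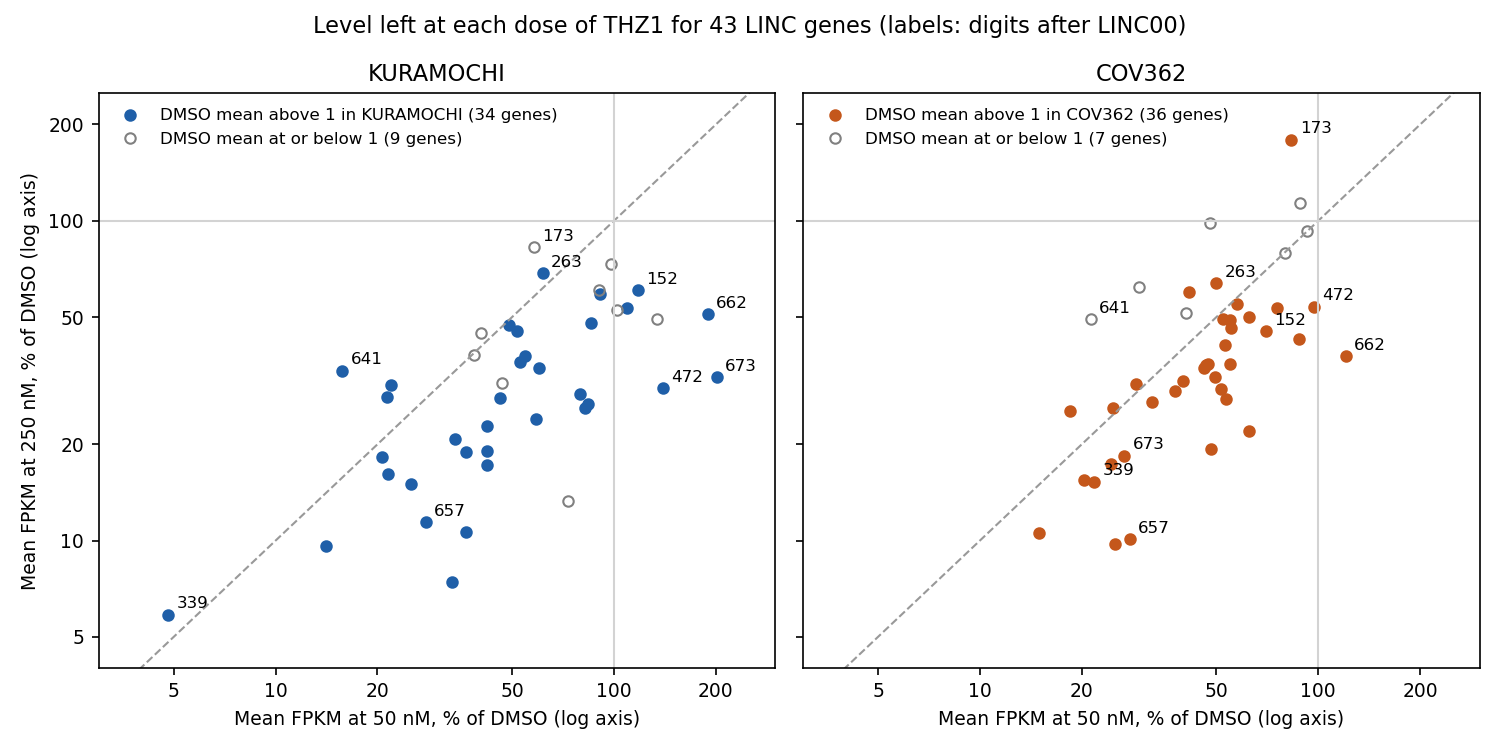
Mean FPKM left at 50 nM (x axis) and at 250 nM (y axis), each in percent of the DMSO mean on log axes, for 43 LINC genes in KURAMOCHI and COV362. Filled points have a DMSO mean above 1 FPKM in that line (34 and 36 genes), open points do not, and points below the dashed line, where both doses leave the same share, had less left at 250 nM than at 50 nM. LINC00339, with 4.80% and 5.87% left in KURAMOCHI, sits apart from the other genes.

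The step from 50 nM to 250 nM compares libraries that did not choose the genes, although the DMSO libraries enter the estimate of the spread behind its test. In Ku 7 of 43 genes were called lower and 0 higher, against 36% and 0.0421% of all active genes. At an unadjusted limma p under 0.05, 22 were lower and 1 higher in Ku, against 73.9% and 0.309% of all active genes, and 17 lower and 2 higher in Cov, against 63.9% and 1.6%. The 7 called in Ku were LINC00657, LINC00662, LINC00623, LINC00152, LINC00493, LINC00673 and LINC00338, the last named after its values were seen. In Cov 4 of 43 were called lower and 0 higher, against 24.4% and 0.0842%: LINC00657, LINC00662, LINC00623 and LINC00847, the last also named after its values were seen. The 3 genes called in both lines are 42.9% of the Ku calls and 75.0% of the Cov calls, beside 55.6% and 82.1% over all active genes. The median level at 250 nM was 59.6% of that at 50 nM in Ku and 77.0% in Cov, beside 55.8% and 69.1% over the active genes, and the median log2 change was -0.36 and -0.18, beside -0.62 and -0.41. Both 250 nM libraries lay below both 50 nM libraries for 32 genes in Ku and 25 in Cov (87.7% and 75.6% of active genes did), and above them for 1 and 7 (1.26% and 4.76%).

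The counts rested on few libraries. In Ku fewer LINC genes were called when any 1 library was left out, and the share of all active genes called fell as well. The same held in Cov without either 250 nM library. With any 1 library left out, the median log2 change was -0.41 to -0.31 in Ku and -0.23 to -0.15 in Cov. With no minimum level the Ku count was 2 (LINC00657 and LINC00623), against 8.05% of all genes tested. With libraries scaled to the same median, 0 genes were called lower in either line and 1 was called higher in each (LINC00467 in Ku, LINC00263 in Cov), against 6.59% lower and 6.62% higher of active genes in Ku and 5.05% and 3.22% in Cov. With median-of-ratios scaling 0 were called, against 11.1% lower and 1.39% higher in Ku and 7.92% and 0.498% in Cov.

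LINC00623, a lncRNA gene whose position on GRCh37 is not given here, was at 58.0 and 62.7 FPKM in Ku DMSO, 48.3 and 47.5 at 50 nM, and 17.7 and 16.9 at 250 nM. The Cov values were 70.9 and 70.1, 36.0 and 36.5, and 21.2 and 20.9. Between doses it fell to 36.1% in Ku (log2 change -1.42 ± 0.07, adjusted p = 5.64e-05, limma) and 58.1% in Cov (-0.76 ± 0.07, adjusted p = 0.000203), the latter call being lost without either Cov 250 nM library (log2 changes of -0.77 to -0.75). With each library scaled to the same median this change in Cov became 0.066. On the ERCC scale, most of its loss in Ku came at the second step and in Cov at the first.

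LINC00662 fell from its 50 nM level to 27.0% at 250 nM in Ku (log2 change -1.56 ± 0.14, adjusted p = 0.000222, limma) and to 31.3% in Cov (-1.29 ± 0.11, adjusted p = 0.000106), and the Ku call was lost without either 50 nM or either 250 nM library (-1.68 to -1.44). LINC00673 fell to 16.1% in Ku (-1.26 ± 0.13, adjusted p = 0.000322), a call lost without the same libraries (-1.38 to -1.13). LINC00472 reached 21.5% in Ku (-1.51 ± 0.22, adjusted p = 0.00128) and was not called. Its 250 nM replicates differed by 0.65 on the log2 scale, the widest gap of any of the 43 in that group.

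LINC00338, now named SNHG20, was at 5.15 and 4.75 FPKM in Ku DMSO, 4.12 and 3.99 at 50 nM, and 1.10 and 1.48 at 250 nM (250 nM against 50 nM: log2 change -1.15 ± 0.13, adjusted p = 0.000557, limma). This call was lost when any 1 Ku library was left out (log2 changes of -1.27 to -1.03). Exons of LINC00338 overlap the coding gene SEC14L1 on the same strand, so reads could belong to either, and SEC14L1 was also called lower between doses in Ku, to 39.6% beside 31.8% for LINC00338. LINC00847 was at 6.27 and 6.82 in Cov DMSO, 1.63 and 1.65 at 50 nM, and 0.563 and 0.717 at 250 nM (-0.69 ± 0.10, adjusted p = 0.000858), a call also lost when any 1 Cov library was left out (-0.75 to -0.62). Exons of LINC00847 overlap HEIH on the opposite strand.

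A handful of genes stood higher at 250 nM than at 50 nM. LINC00641, named after its values were seen, was the 1 gene in Ku whose 250 nM libraries both exceeded both 50 nM libraries, and it did so in Cov as well. It was at 2.76 and 2.72 FPKM in Ku DMSO, 0.527 and 0.335 at 50 nM, and 0.736 and 1.12 at 250 nM (250 nM against 50 nM: log2 change 0.43 ± 0.13, adjusted p = 0.0223, limma). In Cov it was at 0.877 and 0.914, 0.178 and 0.203, and 0.532 and 0.350 (0.27 ± 0.08, adjusted p = 0.0198). Neither difference was called. In Cov the loss at 50 nM, to 21.3% of DMSO, was called (-0.67 ± 0.08, adjusted p = 0.000155), but not without Cov DMSO replicate 2 (log2 changes of -0.69 to -0.66).

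LINC00173 was at 1.29 and 0.810 FPKM in Cov DMSO, 0.770 and 0.977 at 50 nM, and 2.23 and 1.54 at 250 nM. Its 250 nM level was 215% of that at 50 nM (log2 change 0.61 ± 0.16, adjusted p = 0.0123, limma, not called), the largest positive log2 change of the 43 in either line at this step. In Ku the 3 groups overlapped, from 0.172 to 0.880. LINC00263 (OLMALINC) was at 7.03 and 9.28 in Cov DMSO, 3.76 and 4.39 at 50 nM, and 5.20 and 5.19 at 250 nM, and in Ku its groups overlapped (4.08 and 2.35, 2.60 and 1.36, 1.87 and 2.54).

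**Figure D3:**
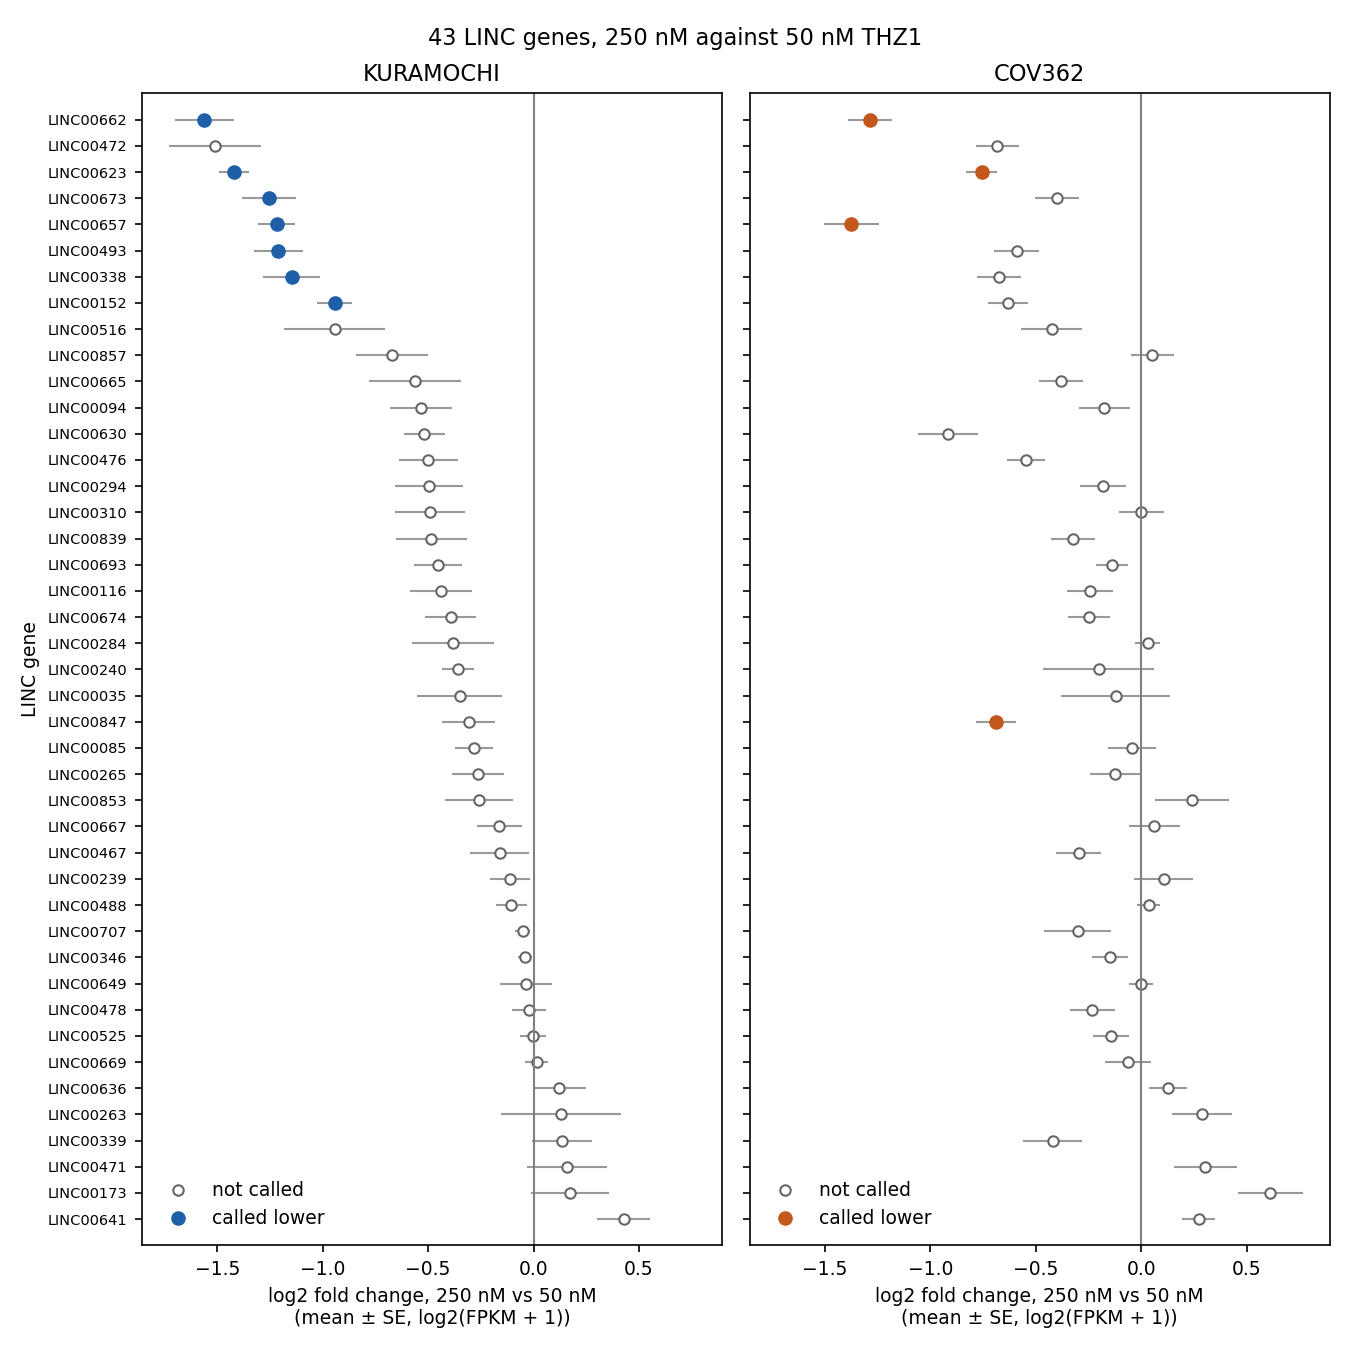
Log2 fold change from 50 nM to 250 nM THZ1 on the log2(FPKM + 1) scale for each of 43 LINC genes, ordered by KURAMOCHI, with bars for ± 1 SE from limma and filled points for genes called lower (7 in KURAMOCHI, 4 in COV362). LINC00662, LINC00623 and LINC00657 are filled in both panels, and no gene is called higher.

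The high dose was compared with DMSO over the same genes. In Ku 17 of 36 genes open to a test were called lower and 0 higher, against 68.6% and 0.0491% of all active genes. In Cov 25 of 34 were called lower and 0 higher, against 84% and 0.105%. At an unadjusted limma p under 0.05, 31 were lower and 0 higher in Ku, against 89.6% and 0.182% of all active genes, and 28 lower and 0 higher in Cov, against 92.8% and 0.309%. Of 27 genes open to a test in both lines, 16 were called in both, which is 94.1% of the Ku calls and 64.0% of the Cov calls among them, beside 94.2% and 76.9% over all active genes. Over all 43 genes the median level left was 30.7% in Ku and 35.7% in Cov, beside 36.3% and 33.0% over the active genes, and the median log2 change was -0.96 and -0.89, beside -1.11 and -1.31. Both 250 nM libraries lay below both DMSO libraries for 40 genes in Ku and 37 in Cov (95.9% and 95.6% of active genes did), and above them for 0 in Ku and 1 in Cov (0.414% and 0.54%).

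Fewer of these genes were called in Ku at 250 nM without DMSO replicate 1 or either 250 nM library, and the share of all active genes called fell as well. With any 1 Ku library left out, the median log2 change was -1.06 to -0.84. With no minimum level the Ku count was 10, against 34.5% of all genes tested. With libraries scaled to the same median 2 genes were lower and 3 higher in Ku (LINC00152, LINC00467 and LINC00674), against 11.7% and 27% of active genes, and 2 lower and 4 higher in Cov (LINC00152, LINC00263, LINC00472 and LINC00674), against 11.3% and 26.6%. With median-of-ratios scaling 4 were lower and 1 higher in Ku, against 19% and 11.1%, and 3 lower and 2 higher in Cov, against 18.9% and 8.57%. LINC00657 was called lower at 250 nM in both lines under both scalings.

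The 4 genes now listed as protein-coding can be set side by side. LINC00493 (SMIM26) was at 46.3 and 38.8 FPKM in Ku DMSO, 26.6 and 23.3 at 50 nM, and 9.87 and 10.5 at 250 nM, and at 58.7 and 60.5, 28.3 and 30.8, and 21.1 and 17.6 in Cov. Its step between doses was called in Ku (40.9% left, log2 change -1.21 ± 0.12, adjusted p = 0.000268, limma), but not without either 50 nM or either 250 nM library (log2 changes of -1.30 to -1.12). LINC00116 (mitoregulin) was at 11.8 and 9.14 in Ku DMSO, 5.79 and 5.64 at 50 nM, and 3.97 and 3.94 at 250 nM. Its levels in Cov were 28.3 and 27.9, 16.8 and 14.3, and 12.2 and 13.7, with more left at 250 nM (46.2%) than in Ku (37.7%). LINC00094 had 20.7% left in Ku and 27.2% in Cov at 250 nM (9.12 and 10.1 in Cov DMSO, 2.71 and 3.46 at 50 nM, 2.60 and 2.61 at 250 nM). LINC00085 was scarce, at 1.44 and 1.53 in Ku DMSO and 3.13 and 2.67 in Cov, with 22.8% and 54.8% left at 250 nM. At 250 nM against DMSO 4 of the 4 were called lower in Ku and 3 of the 4 in Cov, LINC00085 being the exception, against 68.6% and 84% of all active genes. With each library scaled to the same median, 0 of the 4 were called in either line, against 11.7% and 11.3% lower. With median-of-ratios scaling LINC00094 (log2 change -0.68) and LINC00493 (-0.57) were called in Ku and 0 in Cov, against 19% and 18.9% lower.

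Both miRNA hosts with the shared seeds were low. LINC00478, named after its values were seen, was at 1.08 and 1.13 FPKM in Ku DMSO, 0.601 and 0.484 at 50 nM, and 0.601 and 0.441 at 250 nM. Cov libraries had 3.35 and 3.78, 1.70 and 2.07, and 1.39 and 1.52. The doses overlapped in Ku and not in Cov. LINC00085 had 42.2% of DMSO left at 50 nM in Ku and 57.7% in Cov.

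Among the other abundant genes, LINC00467 was at 12.1 and 9.64 FPKM in Ku DMSO, 5.67 and 5.58 at 50 nM, and 5.03 and 4.83 at 250 nM, and at 22.4 and 19.9, 7.94 and 8.94, and 6.80 and 6.55 in Cov. Most of its loss thus came at the low dose in both lines. LINC00665 was at 35.3 and 40.5 in Cov DMSO, 18.4 and 16.5 at 50 nM, and 13.5 and 12.8 at 250 nM, and in Ku at 7.23 and 5.68, 2.96 and 4.77, and 2.09 and 2.38. It shares a stretch of 2999 bases at 98.3% identity with LINC01535. LINC00674 was at 2.60 and 2.08 in Ku DMSO, 2.27 and 1.98 at 50 nM, and 1.36 and 1.40 at 250 nM, with 58.9% left, and in Cov 50.0% was left (5.67 and 6.08 in DMSO, 2.90 and 2.97 at 250 nM). LINC00630 was at 3.96 and 4.80 in Cov DMSO, 2.29 and 3.17 at 50 nM, and 0.898 and 1.03 at 250 nM, with 35.3% of the 50 nM level left at 250 nM (not called), and in Ku at 1.27 and 1.36, 1.34 and 1.53, and 0.822 and 0.585.

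Several genes passed the DMSO limit in only 1 of the lines and were far lower in the other, and these are described without a test against DMSO. LINC00284 (NRAD1) was at 6.62 and 4.20 FPKM in Ku DMSO, 1.25 and 1.48 at 50 nM, and 0.735 and 0.890 at 250 nM, and between 0.0865 and 0.269 in every Cov library. LINC00707 was at 7.88 and 8.29 in Cov DMSO, 3.16 and 4.38 at 50 nM, and 3.28 and 2.45 at 250 nM, and between 0.0777 and 0.144 in Ku. LINC00669 (4.87 and 4.69 in Cov DMSO) and LINC00525 (3.09 in each) were likewise at or below 0.341 FPKM in every Ku library. These 3 Cov genes were named after their values were seen. Levels across lines come from tables normalized separately.

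The share of genes called differed by level. In the step from 50 nM to 250 nM, 0 of 9 genes with a Ku DMSO mean up to 1 FPKM were called, 2 of 22 (9.09%) between 1 and 5, 1 of 8 (12.5%) between 5 and 20, and 4 of 4 above 20. Among all active genes of the same levels the shares were 1.4%, 14.6%, 37.8% and 56.9%. In Cov the counts were 0 of 7, 1 of 18 (5.56%), 1 of 10 (10%) and 2 of 8 (25%), against 0.646%, 5.79%, 29.3% and 34.5%. The pseudocount of 1 FPKM also understates log2 changes at low levels.

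**Figure D4:**
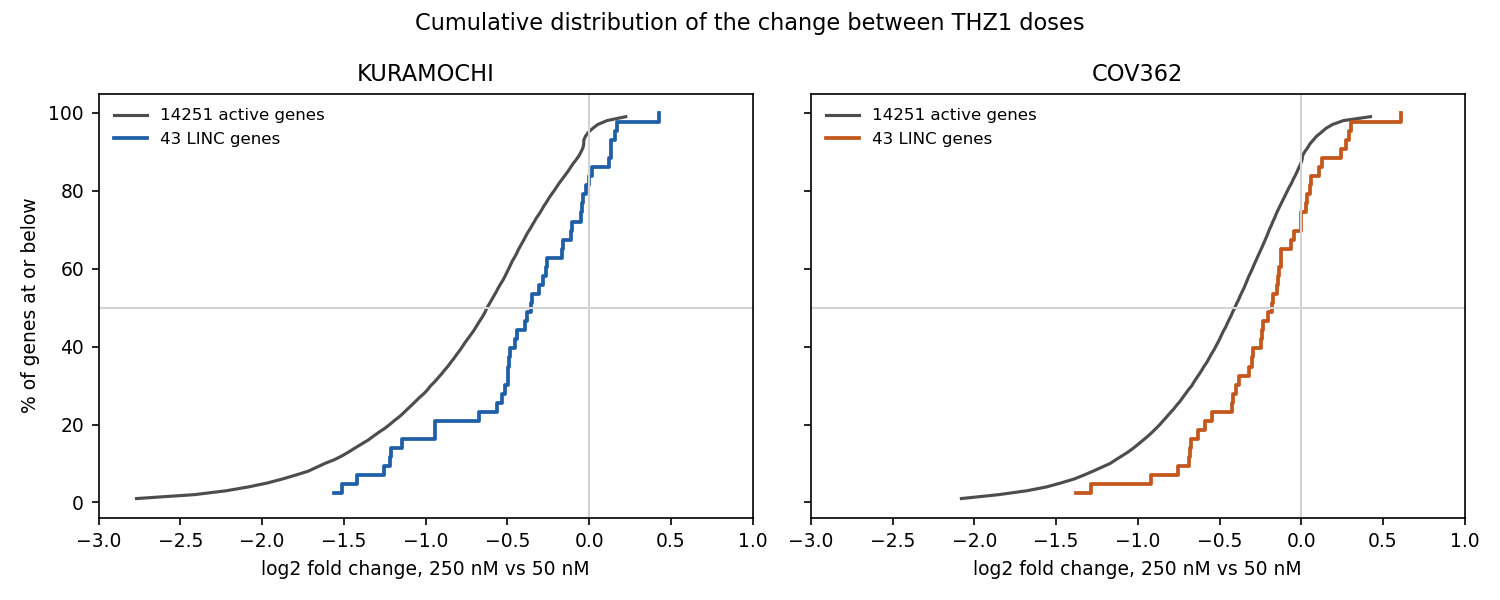
Cumulative percent of genes (y axis) at or below a log2 fold change from 50 nM to 250 nM THZ1 (x axis, log2(FPKM + 1) scale), for 43 LINC genes (stepped line) and the 14251 active genes (smooth line, percentiles 1 to 99). The LINC line lies to the right, with medians of -0.36 in KURAMOCHI and -0.18 in COV362 against -0.62 and -0.41.

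Other non-coding genes were counted in the same way. Of 125 rows with an antisense symbol that met the same DMSO rule, 4 (3.2%) were called lower between doses in Ku and 4 (3.2%) in Cov, with median log2 changes of -0.18 and -0.04. Of 27 tested genes of a list of 31 well-known lncRNAs, 5 (18.5%) were called lower between doses in Ku and 2 (7.41%) in Cov, with medians of -0.26 and -0.28. Of 18 genes for RNA surveillance and decay, such as subunits of the RNA exosome, 15 were called lower between doses in Ku and 11 in Cov, against 36% and 24.4% of all active genes, and 18 in each line at 250 nM against DMSO, against 68.6% and 84%. The part of these genes in the levels of the LINC RNAs was not tested.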

How the data were processed

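RNA-seq libraries from polyadenylated RNA (TruSeq Stranded mRNA, single end) of 2 cell lines were measured, 3 groups of 2 libraries per line, grouped by their labels. HISAT alignment (hg19), Cufflinks and Cuffnorm gave FPKM values, which the authors normalized to ERCC spike-ins and deposited as 1 FPKM table per line. Versions and the strand setting are not given in the sources used here.

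ERCC rows (92 of 23713) were left out. Genes above 1 FPKM in at least 1 of 12 libraries were active (14251, among them all 43 LINC genes, which the DMSO limit itself ensures). Values were transformed as log2(FPKM + 1), and a model of the 3 groups was fitted per line (limma 3.58.1, eBayes with a trend, R 4.3.3), two-sided, with Benjamini-Hochberg adjustment over the active genes. The script was tested on simulated data. Alternatives were a pseudocount of 0.1, no minimum or FPKM above 5, 2 other scalings, a block for the replicate number, no eBayes trend, only the groups compared, an adjusted p under 0.05, a DMSO limit of 2 FPKM, and each library left out in turn, where a lone library is assumed to vary like the other groups.

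Positions come from GENCODE on GRCh37 (39 of 43 matched), names, promoters (35 of 43) and miRNAs from RefSeq on GRCh38.p14, and copies from blastn 2.17.0 against GENCODE transcripts (at least 97% identity over 300 bases in another gene, found for 8 of 39). Named were the 8 genes with the highest DMSO mean in each line, the 4 most negative and the 4 most positive between doses in each line among genes averaging above 1 FPKM at those doses, those listed as protein-coding or known to hold a microprotein, and NORAD and CYTOR, 20 in all. The members and lists were chosen with earlier results of these data known.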

Additional observations from a re-analysis of the deposited data

Results flagged for a closer look

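Of the 43 genes, 4 were set apart because every library of one line moved one way and every library of the other line the opposite way. In each case the difference between the lines was not tested. LINC00152 at 50 nM against DMSO had a log2 change of 0.23 in Ku and -0.51 in Cov. LINC00673 at 50 nM against DMSO had a log2 change of 0.62 in Ku and -1.65 in Cov. Its DMSO libraries were at 0.975 and 1.26 FPKM in Ku, and neither the Ku change nor that of LINC00152 in Ku was called. LINC00284 at 250 nM against 50 nM had a log2 change of -0.38 in Ku and 0.032 in Cov. In Cov it lay between 0.0865 and 0.133 FPKM at these doses, where the value that the most rows share was 0.0890 to 0.105. LINC00488 at 250 nM against 50 nM had a log2 change of -0.11 in Ku and 0.035 in Cov, where it lay between 0.0894 and 0.140 FPKM at these doses, at or close to the shared value and so not to be told from absence, and it was named after its values were seen.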

How the results depend on the processing

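Depth is unknown from FPKM, so the precision of low values could not be given. In the following, counts and medians are given in the order 50 nM against DMSO, 250 nM against DMSO and 250 nM against 50 nM. The 2 other scalings moved the medians most, and their construction removes the loss of RNA common to all genes. The Ku count at 50 nM against DMSO fell further under other settings, given below. With each library scaled to the same median, the counts called lower were 1, 2 and 0 in Ku and 0, 2 and 0 in Cov, and the medians of the 43 genes were -0.10, 0.13 and 0.19 in Ku and 0.085, 0.36 and 0.29 in Cov. The medians of all active genes were then 0.11, 0.30 and 0.25 in Ku and 0.13, 0.33 and 0.23 in Cov. With median-of-ratios scaling the counts were 2, 4 and 0 in Ku and 0, 3 and 0 in Cov, and the medians were -0.18, -0.092 and 0.050 in Ku and 0.0060, 0.086 and 0.12 in Cov. Those of all active genes were then 0.025, -0.00088 and 0.034 in Ku and 0.0020, 0.011 and 0.038 in Cov. The log2 change of LINC00152 from DMSO to 250 nM became 1.26 and 0.73 in Ku under these scalings and 0.92 and 0.46 in Cov, and with equal medians its change between doses in Ku became 0.32 and that of LINC00623 in Cov 0.066. With a pseudocount of 0.1 the medians were -0.85, -1.49 and -0.69 in Ku and -0.96, -1.37 and -0.33 in Cov, and 7 genes were called between doses in Cov (29.6% of active genes). No median over all active genes was computed with this pseudocount or with the 5 FPKM limit below, so none stands beside these medians. With only genes above 5 FPKM in a library, 7 genes were called between doses in Cov (34% of the genes tested), and the medians were -1.20 (250 nM against DMSO) and -0.52 (between doses) in Ku and -0.94, -1.35 and -0.35 in Cov. With no minimum the Ku counts were 0, 10 and 2 (0.0127%, 34.5% and 8.05% of all genes tested), and with a DMSO limit of 2 FPKM the Cov medians were -0.77, -1.14 and -0.27. With only the 2 groups compared, 0 genes were called in Ku at 50 nM against DMSO (0.0632% of active genes called lower). At an adjusted p under 0.05, 15 genes were lower and 2 higher (LINC00662 and LINC00673) in Ku at 50 nM against DMSO, beside 40.2% and 0.618% of all active genes, 12 were lower and 0 higher between doses in Ku, beside 58.2% and 0.133%, and 10 were lower and 1 higher (LINC00173) between doses in Cov, beside 41.5% and 0.288%. Apart from the scalings and the lower limits named here, the cause of these shifts was not tested.

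Leaving out each library in turn gave counts of 0 to 1, 6 to 15 and 1 to 6 in Ku and of 10 to 19, 20 to 26 and 2 to 5 in Cov. The medians ranged from -0.61 to -0.46, from -1.06 to -0.84 and from -0.41 to -0.31 in Ku, and from -0.73 to -0.65, from -1.05 to -0.85 and from -0.23 to -0.15 in Cov. Same-numbered libraries did not deviate together (correlations of deviations from -0.0703 to 0.0282), so the numbers were not taken to pair them. With the replicate block, 2 genes were called at 50 nM against DMSO in Ku (LINC00339 and LINC00657, without LINC00094 and LINC00667, beside 6.94% of active genes) and 1 between doses in Cov (LINC00662, without LINC00657, LINC00623 and LINC00847, beside 7.93%), and the other counts stayed within 1.5 times. Of 274 further values of single genes under the alternatives other than leaving out libraries, 209 kept their direction and side of the threshold, 54 were no longer past it, 5 came past it and 6 changed sign.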
